A study of Rattus norvegicus with 64 samples.

Results

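Cell cycle and proliferation genes were examined in rat bladder walls reconstructed using bladder acellular matrix (BAM) with or without adipose derived stem cells (ADSCs). The members were a fixed list of 50 rat genes of the cell division cycle, and a gene was kept when a probe on the array matched its RefSeq transcript. There were 45 such members among 15715 named genes on the array. Top2a, Anln, Cenpe, Melk and Mcm5 were not matched to any probe. Male Wistar rats underwent hemicystectomy, and the removed part of the bladder was replaced with a graft of about 1 cm2. BAM is rat bladder from which the cells were removed. In 4 groups the graft was unseeded BAM, and in the other 4 groups it was BAM on which ADSCs had been seeded before surgery. The ADSCs came from the retroperitoneal fat of male Wistar rats 10 weeks old and were used at the third passage. The recipients were syngeneic, and their age is not given in the labels. Bladders were taken at 7, 30, 90 or 180 days after surgery, and each of the 8 groups held 8 arrays, each from the reconstructed wall of a separate animal. All animals were operated on, so each comparison is between grafts or between days and none is with an unoperated bladder.

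Dividing cells pass from G1 into S phase, where DNA is copied, and through G2 into mitosis. Cyclin E and E2F1 act at the entry into S phase, the Mcm proteins open the DNA at the replication fork, and Pcna is the clamp that holds the polymerase. Cyclin B with Cdk1 drives mitosis, the Aurora and Plk1 kinases run it, the kinetochore ties chromosomes to the spindle, and Cdc20 directs the ubiquitin ligase that ends it. Most mitotic genes are transcribed only in cycling cells, whereas replication proteins can persist after a cell leaves the cycle. In the adult bladder the urothelium and the muscle divide slowly, and both divide after injury.

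Levels are given as the log2 of the background-corrected Cy3 signal minus the 75th percentile of that array, so 0 is the 75th percentile and 1 unit is a 2-fold difference in signal. A call required a Benjamini-Hochberg adjusted p below 0.01 over 30367 probes and a fold change over 1.5, both from limma. A probe is described as well above background where the scanner software marked it so. All 8 smooth muscle markers were well above background on every array, and 7 or 8 of 8 urothelial markers were. On every array of days 7 and 30 so were all 8 T cell markers and at least 5 of 7 skeletal muscle markers. The mark therefore does not identify the tissue. The arrays did not measure weak transcripts equally well. On the arrays of days 7 and 30, which were scanned on 1 day, 73.28 to 95.58% of spots were well above background, against 35.54 to 64.59% on those of days 90 and 180, scanned on another. The background signal was 42 to 52 on the first and 99 to 366 on the second, and it was highest in unseeded BAM at 90 days, at 321 to 366. Of the 45 members, 43 to 45 were well above background on each array of days 7 and 30, and 9 to 38 on each of days 90 and 180. Each group lay on a slide of its own, so slide and group cannot be told apart.

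Promoter sequence was examined first, since it is shared between members and was not used to choose them. RefSeq promoters (assembly GRCr8, 250 bases before to 50 bases after the start of the gene) were found for 39 of the 50 listed genes. They were searched on both strands for the cell cycle homology region (CHR, TTTGAA), the CCAAT box and E2F sites (TTTCCCGC, TTTGGCGC, TTTCGCGC or TTTGCCGC). The letters of the CHR were present in 20 of 30 promoters of G2 and mitotic genes (66.7%) and in 18.1% of all 27457 rat promoters. The CCAAT box was present in 22 of the 30 (73.3%) and in 37.7% of all promoters, and 16 of the 30 (53.3%) held both against 7.25%. An E2F site was present in 1 of the 30, Cdk1. In the 9 promoters of G1/S, replication and nucleotide genes E2F and CHR were the other way round. An E2F site was present in 6 (66.7%), against 2.25% of all promoters, and a CHR in 1, that of Mcm2. The CCAAT box was present in 5 of the 9 (55.6%), above the 37.7% of all promoters, as in the mitotic genes. Neither letters nor absence of letters show binding.

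The promoters of 4 genes of mitosis are shown because all hold a CHR and a CCAAT box and their transcripts fell from 30 to 90 days in both grafts. Capitals mark the matched motifs, on either strand, and positions are counted from the gene start.
Mki67 (chr1:199952544-199952843, minus strand): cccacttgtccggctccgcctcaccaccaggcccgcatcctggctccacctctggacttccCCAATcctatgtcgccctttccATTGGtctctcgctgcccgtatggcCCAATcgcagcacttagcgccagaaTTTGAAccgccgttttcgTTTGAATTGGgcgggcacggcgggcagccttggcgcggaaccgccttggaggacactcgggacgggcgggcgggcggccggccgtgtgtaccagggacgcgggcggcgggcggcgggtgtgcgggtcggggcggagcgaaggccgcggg
Plk1 (chr1:186147408-186147707, plus strand): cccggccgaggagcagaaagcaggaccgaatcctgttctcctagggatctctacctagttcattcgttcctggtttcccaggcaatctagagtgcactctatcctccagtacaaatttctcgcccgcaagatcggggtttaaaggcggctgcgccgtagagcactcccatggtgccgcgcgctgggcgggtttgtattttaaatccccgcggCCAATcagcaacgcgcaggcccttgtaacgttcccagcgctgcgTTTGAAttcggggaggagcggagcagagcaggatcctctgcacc
Cdc20 (chr5:137255750-137256049, minus strand): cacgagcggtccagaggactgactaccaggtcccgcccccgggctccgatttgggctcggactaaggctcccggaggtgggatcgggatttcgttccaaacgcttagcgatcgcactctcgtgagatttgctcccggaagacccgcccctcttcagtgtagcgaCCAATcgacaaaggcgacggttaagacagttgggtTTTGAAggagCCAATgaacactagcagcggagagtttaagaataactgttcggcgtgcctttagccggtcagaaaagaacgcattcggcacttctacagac
Cdk1 (chr20:19265043-19265342, plus strand): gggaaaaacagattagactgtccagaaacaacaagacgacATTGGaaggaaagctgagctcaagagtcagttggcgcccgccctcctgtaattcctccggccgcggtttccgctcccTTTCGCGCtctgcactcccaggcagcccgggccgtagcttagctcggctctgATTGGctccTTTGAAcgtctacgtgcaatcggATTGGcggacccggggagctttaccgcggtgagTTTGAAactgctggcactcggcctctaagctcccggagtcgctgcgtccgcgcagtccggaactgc
Mki67 encodes the Ki-67 protein that coats mitotic chromosomes, and its promoter held CHR letters at -117 and -99 bases. In Plk1, a mitotic kinase, the CHR lay 7 bases after the start with a CCAAT box at -38. In Cdc20, the activator of the ubiquitin ligase of anaphase, the CHR was at -51. Cdk1, the mitotic kinase itself, held CHR letters at -72 and -16 and the E2F letters at -133.

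The promoters of 3 subunits of the Mcm helicase are shown for contrast, since they hold E2F letters and no CHR. All 3 also hold a CCAAT box.
Mcm3 (chr9:30733697-30733996, minus strand): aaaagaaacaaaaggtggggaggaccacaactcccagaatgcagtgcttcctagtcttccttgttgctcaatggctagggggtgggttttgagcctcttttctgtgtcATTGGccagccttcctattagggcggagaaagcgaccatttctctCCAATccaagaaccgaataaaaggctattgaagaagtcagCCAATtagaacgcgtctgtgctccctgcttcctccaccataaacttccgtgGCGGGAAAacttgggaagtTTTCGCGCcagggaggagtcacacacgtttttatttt
Mcm6 (chr13:42404303-42404602, minus strand): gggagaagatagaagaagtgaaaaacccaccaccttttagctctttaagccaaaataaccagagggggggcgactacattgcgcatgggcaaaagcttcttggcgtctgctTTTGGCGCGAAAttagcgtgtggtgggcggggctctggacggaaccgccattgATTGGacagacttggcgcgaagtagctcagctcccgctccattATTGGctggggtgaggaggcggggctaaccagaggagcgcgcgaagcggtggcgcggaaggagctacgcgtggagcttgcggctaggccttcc
Mcm7 (chr12:22163129-22163428, minus strand): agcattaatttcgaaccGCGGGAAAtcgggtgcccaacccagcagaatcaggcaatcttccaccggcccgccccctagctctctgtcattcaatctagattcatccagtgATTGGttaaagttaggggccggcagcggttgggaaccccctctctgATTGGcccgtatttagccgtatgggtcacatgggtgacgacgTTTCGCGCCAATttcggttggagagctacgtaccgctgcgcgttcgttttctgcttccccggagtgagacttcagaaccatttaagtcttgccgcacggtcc
In Mcm3 the E2F letters were at -6 and 14, in Mcm6 at -139 and -135 where they overlap, and in Mcm7 at -233 and -52.

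The mean over the 45 members summarised each array. With ADSCs it was -1.71 ± 0.317 (SD, n = 8) at 7 days, -1.70 ± 0.495 at 30, -3.52 ± 0.255 at 90 and -3.08 ± 0.748 at 180. Without ADSCs it was -1.29 ± 0.477, -1.88 ± 0.174, -3.06 ± 0.503 and -3.46 ± 0.243 in the same order. In both grafts the members were thus high at 7 and 30 days and low at 90 and 180 days. The arrays of 7 and 30 days lay between -2.27 and -0.20, and those of 90 and 180 days between -4.01 and -1.61. The 2 ranges overlapped through a single seeded bladder at 180 days, replicate 5, at -1.61, since the next highest late array lay at -2.30. In bulk tissue, fewer dividing cells and less of these transcripts per cell cannot be told apart.

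**Figure D1:**
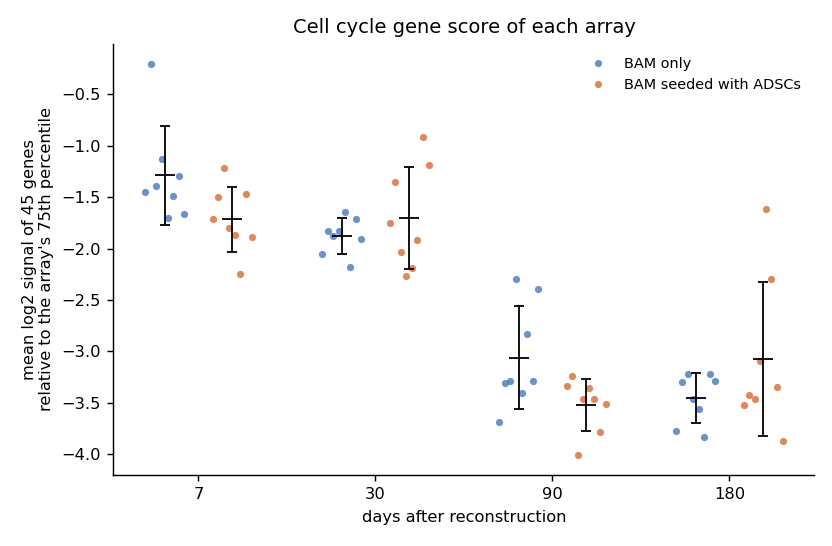
Mean level of the 45 members on each array (log2 signal relative to the 75th percentile of the array) by day, with points for single bladders and the mean ± SD of 8 arrays, blue for unseeded BAM and orange for BAM seeded with ADSCs. Late arrays lie below early ones in both grafts, except for 1 seeded bladder at 180 days at -1.61, and 1 unseeded bladder at 7 days stands highest at -0.20.

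Levels of 11 members are given at all 8 groups as mean ± SD (n = 8), in the order of the days. Mki67, the Ki-67 gene, was at 0.58 ± 0.309, 0.39 ± 0.453, -2.12 ± 0.559 and -1.73 ± 0.96 at 7, 30, 90 and 180 days with ADSCs, and at 1.06 ± 0.456, 0.62 ± 0.224, -1.80 ± 0.849 and -2.08 ± 0.288 without. Cdk1, the mitotic kinase, was at 0.95 ± 0.454, 0.58 ± 0.724, -1.06 ± 0.287 and -0.92 ± 1.12 with ADSCs, and at 1.46 ± 0.544, 0.37 ± 0.162, -1.60 ± 0.883 and -0.89 ± 0.329 without. Plk1 was at 0.19 ± 0.387, 0.00 ± 0.652, -2.33 ± 0.636 and -1.83 ± 1.28 with ADSCs, and at 0.79 ± 0.599, -0.03 ± 0.24, -2.26 ± 0.872 and -2.49 ± 0.427 without. In these 3 every mean of 90 and 180 days lay below every mean of 7 and 30 days. Ccnb1, cyclin B1, was at -1.70 ± 0.362, -2.15 ± 0.637, -5.07 ± 0.679 and -4.13 ± 1.02 with ADSCs, and at -1.11 ± 0.659, -2.24 ± 0.295, -4.25 ± 0.767 and -4.62 ± 0.866 without. Aurkb, the kinase of the chromosomal passenger complex, was at -4.53 ± 0.48, -4.04 ± 0.799, -6.05 ± 0.272 and -5.43 ± 0.331 with ADSCs, and at -4.02 ± 0.548, -4.17 ± 0.473, -4.71 ± 1.69 and -5.63 ± 0.728 without. These 2 were well above background on all early arrays and on 0 to 3 of 8 in each late group, so their late levels are close to background.

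Ccne1, cyclin E1, was at -0.96 ± 0.289, -0.96 ± 0.553, -2.67 ± 0.223 and -2.77 ± 0.966 at 7, 30, 90 and 180 days with ADSCs, and at -0.62 ± 0.506, -1.04 ± 0.327, -1.94 ± 1.17 and -2.78 ± 0.344 without. Tyms, thymidylate synthase, was at -2.57 ± 0.271, -2.33 ± 0.327, -3.15 ± 0.345 and -3.55 ± 0.547 with ADSCs, and at -2.47 ± 0.448, -2.55 ± 0.103, -2.98 ± 0.314 and -3.33 ± 0.332 without. Foxm1, a transcription factor of mitotic genes, was at -2.14 ± 0.266, -2.14 ± 0.431, -2.72 ± 0.135 and -2.50 ± 0.53 with ADSCs, and at -1.73 ± 0.414, -2.33 ± 0.161, -3.11 ± 0.398 and -2.72 ± 0.273 without. In these 3 the late means again lay below the early ones. E2f1, a transcription factor of S phase entry, was at -1.22 ± 0.107, -1.24 ± 0.0978, -1.70 ± 0.138 and -1.59 ± 0.186 with ADSCs, and at -0.76 ± 0.253, -0.77 ± 0.13, -1.61 ± 0.356 and -1.80 ± 0.214 without. Mcm2, a helicase subunit, was at -0.78 ± 0.239, -0.81 ± 0.417, -1.27 ± 0.104 and -1.06 ± 0.377 with ADSCs, and at -0.54 ± 0.288, -0.85 ± 0.137, -1.36 ± 0.285 and -1.05 ± 0.101 without. Pcna, the replication clamp, was at 1.03 ± 0.197, 1.09 ± 0.306, 0.66 ± 0.0858 and 1.09 ± 0.2 with ADSCs, and at 1.16 ± 0.366, 1.14 ± 0.153, 0.67 ± 0.248 and 0.92 ± 0.153 without. The 8 means of Pcna lay between 0.66 and 1.16, the narrowest span of the 11, and its means at 180 days with ADSCs and at 30 days were equal.

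The step from 30 to 90 days was compared next. With ADSCs, 38 of 45 members fell and 0 rose, where 10.3% of all probes fell and 17.8% rose. In unseeded BAM 29 fell and 1 rose, where 9.49% of all probes fell and 35.2% rose. The median member difference was -1.79 with ADSCs and -1.14 without, beside medians over all probes of 0.11 and 0.30. With normexp background correction the member medians were -0.91 and -0.75, beside 0.23 and 0.19, so the direction was kept and the size was smaller by over 1.5 times in both grafts. In 35 of 45 members every seeded array of 90 days lay below every one of 30 days, as in 7.35% of named genes, and in unseeded BAM this held for 15 of 45, against 5.59%. Days 30 and 90 were also scanned on different days, with the backgrounds given above, so the passage of time and the scan day cannot be told apart in this step. Of the 38 seeded falls, 12 were in genes that were not well above background on any array of 90 days, and of the 29 unseeded falls 1 was. For such genes only a bound is given, or the difference in signal where the background limit set no bound. Members well above background on all 16 arrays of the comparison do not depend on that limit. With ADSCs there were 16, of which 10 fell (Aurka, Ccne1, Cdc20, Cdk1, Dlgap5, Mcm3, Mcm4, Mki67, Rrm2 and Tk1), and in unseeded BAM there were 6, of which Aurka, Mcm3, Mcm4 and Rrm2 fell.

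Mki67 is the customary marker of dividing cells. At 30 days its lowest, median and highest levels were -0.07, 0.16 and 1.13 with ADSCs and 0.19, 0.68 and 0.88 without. At 90 days they were -3.20, -2.02 and -1.40 with ADSCs and -2.70, -1.76 and -0.46 without. In each graft all arrays of 90 days were below all of 30 days. Mki67 fell by 2.50 with ADSCs (SE 0.282, adjusted p 1.66e-10) and by 2.43 without (SE 0.282, adjusted p 9.95e-11) on the log2 scale.

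The cyclins and Cdk1 of G2 and mitosis fell together, 5 of 5 members with ADSCs and 4 of 5 without, with medians of -2.42 and -1.96. Ccna2, the cyclin of S phase and G2, had a mean level of -0.38 with ADSCs and -0.56 without at 30 days, and later of -3.96 and -3.37. It fell by 3.59 with ADSCs (SE 0.451, adjusted p 3.27e-09) and it fell by 2.81 without (adjusted p 3.05e-07), the largest falls of any member in each graft. Ccna2 was well above background on 5 seeded and 3 unseeded arrays of 90 days. Ccnb1, cyclin B1, went from -2.15 ± 0.637 to a signal not well above background on any seeded array, a fall of 7.57-fold in signal. In unseeded BAM it fell by 2.01 on the log2 scale. In Ccnb1, and in Ttk below, the seeded signals of 90 days were not marked well above background on any array. They lay above the weakest signals so marked, so the limit set no bound. Their folds with ADSCs are thus differences from signals close to background, and the size of the fall is uncertain. Cdk1 fell by 1.64 with ADSCs and by 1.96 without. Cdkn3, a phosphatase that acts on cyclin-dependent kinases, fell at least 2.87-fold with ADSCs and gave -0.56 without (adjusted p 0.0347).

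All 7 mitotic kinase and spindle checkpoint genes fell with ADSCs and 4 of 7 did without, with medians of -2.33 and -1.40. Plk1 fell by 2.33 and 2.22, and Aurka, which builds the spindle poles and was well above background on all arrays of 30 and 90 days, fell by 1.79 (SE 0.181, adjusted p 9.01e-12) and 1.40 (adjusted p 2.09e-09). Bub1, a kinase of the spindle checkpoint, fell by 2.46 and 1.96 by its brighter probe. The second, dim Bub1 probe gave differences of 2.05 and 3.00, the opposite direction. Ttk, another checkpoint kinase, fell 7.36-fold in signal with ADSCs, uncertain in size as for Ccnb1, and fell by 1.97 on the log2 scale without. Aurkb, Bub1b and Pbk fell with ADSCs and did not pass the test without, at -0.54, -0.67 and -0.51, and the difference between the grafts in this step is given below for those that passed its test.

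Kinetochore genes fell in 3 of 3 cases with ADSCs and in 2 of 3 without. Nuf2, which links chromosomes to microtubules, fell at least 6.79-fold and by 1.69, and its partner Ndc80 fell by 2.49 and 1.72. Birc5, the survivin subunit of the chromosomal passenger complex, fell by 2.38 and 1.84. Cdca8, another subunit of that complex, fell by 1.41 with ADSCs and gave 0.20 without. Of the cytokinesis genes both fell in both grafts. Ect2, which sets the cleavage furrow, fell by 3.38 and 2.07, and Racgap1 fell by 2.09 and 1.16. Ect2 was well above background on 1 seeded and 2 unseeded arrays of 90 days. The 3 genes of ubiquitin ligase steps fell in both, with differences of -3.20 and -2.51 for Cdca3, -1.0 and -0.70 for Cdc20, and -2.26 with ADSCs for Ube2c, which also passed without them.

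Spindle motors and microtubule proteins fell in 7 of 9 cases with ADSCs and in 5 of 9 without, with medians of -1.75 and -1.04. Kif11, the motor that pushes the spindle poles apart, was at -2.58 and -2.63 at 30 days and not well above background on any array of 90 days, a fall of at least 8.60-fold with ADSCs and at least 3.88-fold without. Dlgap5, a spindle protein, fell by 1.12 and 1.04. Kif23 gave -0.94 with ADSCs (adjusted p 0.0142) and -0.08 without. Hmmr was the member called higher, by 1.96 in unseeded BAM, but it was well above background on no array of 90 days and on 1 of 30 days, and the sign turned to -0.15 after quantile normalization.

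The nucleotide supply genes had median differences of -1.55 and -1.31. Among them Rrm2, the regulated subunit of ribonucleotide reductase, was among the 4 largest falls in each graft. With ADSCs its lowest, median and highest levels were 1.27, 1.70 and 3.11 at 30 days, against -3.04, -1.17 and -0.47 at 90. Without ADSCs they were 1.60, 2.09 and 3.14 against -2.09, -0.58 and 1.19. It was well above background on every one of these arrays, and the 2 days did not overlap in either graft. Rrm2 fell by 3.31 (SE 0.433, adjusted p 8.75e-09) and 2.62 (adjusted p 5.56e-07). Tk1, thymidine kinase, fell by 1.55 and 1.31. Tyms, thymidylate synthase, fell by 0.81 with ADSCs and gave -0.44 without.

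The helicase and clamp genes were split, with 3 of 6 falling in each graft and medians of -0.68 and -0.58. The 3 were the same subunits in both, Mcm3 by 1.38 and 1.14, Mcm6 by 1.12 and 0.88 and Mcm4 by 0.90 and 0.66. Mcm7 gave 0.10 (SE 0.216) and 0.18 (SE 0.216) and did not pass the test, although it belongs to the same complex. Its mean with ADSCs went from 1.21 to 1.32 and without from 0.97 to 1.15, and it was well above background on all of these arrays. Pcna gave -0.42 (adjusted p 0.00252) and -0.47 (adjusted p 0.000479), under the fold required, and Mcm2 gave -0.46 and -0.51. Of the 4 G1/S genes 2 fell in each graft. Ccne1, cyclin E1, fell by 1.71 with ADSCs and gave -0.90 without (adjusted p 0.0103), Ccne2 fell at least 1.68-fold with ADSCs and gave 0.48 without, E2f1 gave -0.46 and fell by 0.83, and Foxm1, the transcription factor of the mitotic genes, gave -0.58 and fell by 0.78. The second probes of Foxm1 and Mcm2 gave 0.24 and 0.05 without ADSCs, and -1.14 and -1.02 with them.

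**Figure D2:**
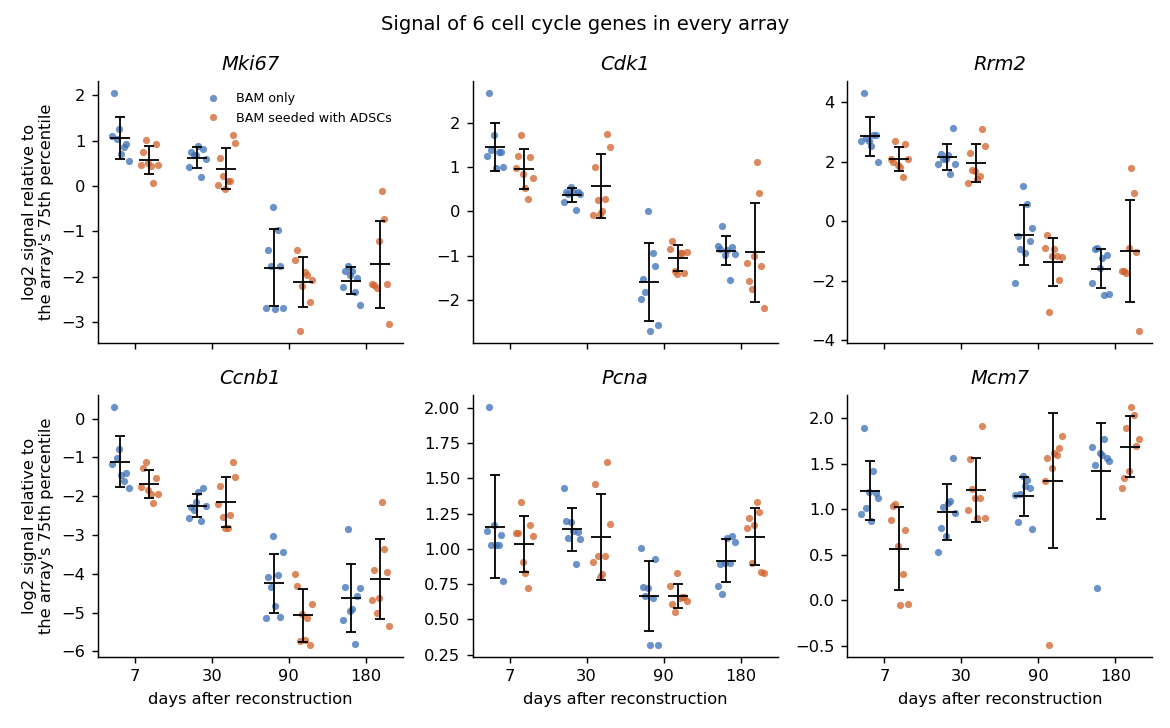
Levels of Mki67, Cdk1, Rrm2, Ccnb1, Pcna and Mcm7 on each array by day (log2 signal relative to the 75th percentile of the array), points for single bladders with the mean ± SD of 8, blue for unseeded BAM and orange for BAM seeded with ADSCs. The first 4 genes drop between 30 and 90 days in both grafts, Pcna by less than 0.5, and Mcm7 did not pass the test.

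**Figure D3:**
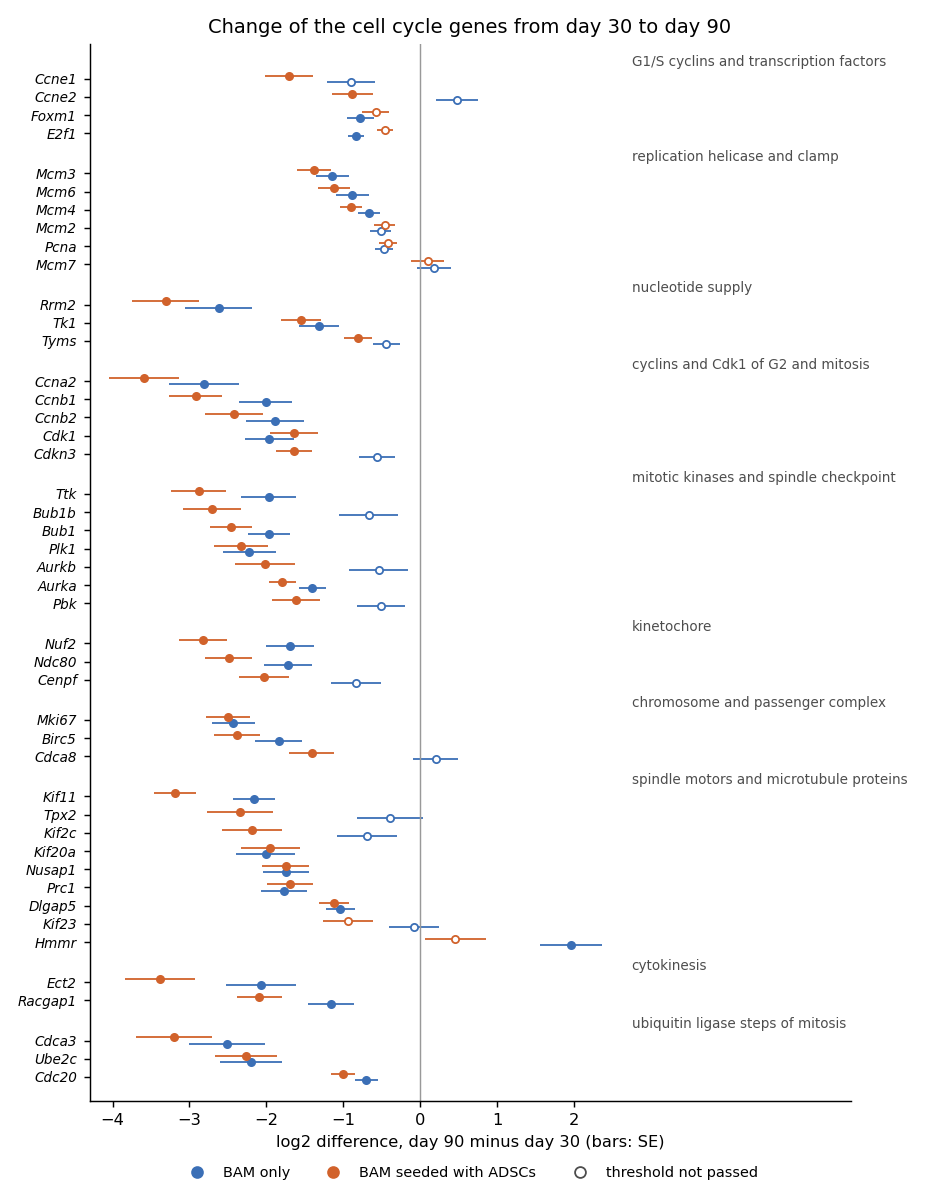
Log2 difference of 90 minus 30 days for each member ± SE, grouped by role, for BAM seeded with ADSCs (orange) and unseeded BAM (blue), with open symbols where the threshold was not passed. The mitotic roles lie further below 0 than the helicase, clamp and G1/S roles, down to -3.59 for Ccna2, and only Hmmr was called higher.

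The motif groups of the promoters were set beside these differences as a description. The 6 measured members with E2F letters had medians of -0.97 with ADSCs and -0.69 without, and the 28 with a known promoter and no such letters had -2.11 and -1.70. The 19 with a CHR had -2.03 and -1.72, and the 15 without one -1.71 and -1.14. With ADSCs the genes of the 7 promoters shown went from Mki67 at -2.50 to Mcm7 at 0.10. The 19 with a CHR went from -3.38 to 0.46, and the 15 without one from -3.2 to 0.1.

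Other genes of the cycle were read from lists of 36 further mitotic, 29 origin licensing and replication fork, 8 G1 cyclin and kinase and 15 Cdk inhibitor and pocket protein genes. Further mitotic genes fell in 25 of 36 cases with ADSCs and 21 of 36 without, and 1 rose in each. Licensing and fork genes fell in 12 of 29 and 5 of 29, among them Gins1, of the replicative helicase, by 0.95 and 1.28. In the list of inhibitors and pocket proteins 2 of 15 rose in each graft and 4 fell with ADSCs and 2 without, beside 17.8% and 35.2% of all probes that rose and 10.3% and 9.49% that fell. Cdkn1a, the Cdk inhibitor p21, rose by 0.72 (adjusted p 1.1e-05) with ADSCs and 0.98 (adjusted p 6.14e-09) without. Cdkn1c, the inhibitor p57, rose by 2.29 with ADSCs (adjusted p 0.000243). Of the G1 genes, Ccnd3, cyclin D3, rose by 0.62 and 1.22, whereas Cdk6, its kinase, fell by 1.09 and 1.12 and Myc, a growth-promoting transcription factor, fell by 0.77 and 0.95.

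Markers of several cell types moved in the same step. Of 8 smooth muscle markers 7 rose with ADSCs and 5 without, and the mean level over the list with ADSCs was 1.90 to 2.93 at 30 days, then 3.53 to 4.39. Without ADSCs it was 2.28 to 3.10 and 2.63 to 4.32. Of 8 macrophage markers 3 fell with ADSCs and 6 without, and the mean level was 0.99 to 1.71 and then -1.84 to 1.21 with ADSCs, and 1.70 to 2.37 and then -0.55 to 1.88 without. Of 7 neutrophil markers 5 fell and 1 rose with ADSCs, and 1 fell and 1 rose without. Neutrophil levels with ADSCs were -3.64 to -1.27 and then -5.52 to -3.32, and -3.57 to -1.89 and -4.89 to -2.32 without, and on at least 1 late array of each graft none of the 7 was well above background. Of 8 fibroblast markers 1 rose and 2 fell with ADSCs, and 5 fell without, at mean levels of 2.77 to 3.13 and 2.36 to 2.81 with ADSCs and 2.83 to 3.19 and 1.96 to 2.62 without. The part of the cell makeup in the fall of the members was not tested.

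Within the first scan day, 30 days was compared with 7 days. With ADSCs 0 of 45 members passed, where 8.06% of all probes did, and the median of -0.02 was beside 0.27 over all probes. In unseeded BAM 4 fell, where 4.21% of probes fell, and 44 of 45 members were below 0, with a median of -0.69 beside -0.06 over all probes. In 12 of 45 members every array of 30 days was below every array of 7 days, against 4.06% of named genes. Cdk1 differed by -1.10 (SE 0.316, adjusted p 0.00808), Dlgap5 by -0.77 (SE 0.189, adjusted p 0.00179), Foxm1 by -0.60 (SE 0.175, adjusted p 0.00927) and Cdc20 by -0.59 (SE 0.153, adjusted p 0.00295), and all 4 were well above background on all 16 arrays. Further mitotic genes fell in 10 of 36 cases in the same step. The contrast between the grafts, tested on all 4 groups, was passed by 0 of 45 members, beside 0.985% of probes. The 4 calls were close to the threshold. Their count was 1 without unseeded replicate 2 or 4 of 7 days, or 1, 2 or 4 of 30 days, 2 without replicates 3, 6 or 7 of 7 days or 3, 5, 6, 7 or 8 of 30 days, and 13 with another background correction. Of 7 neutrophil markers 6 fell in this step of unseeded BAM, with mean levels of -1.14 to 1.03 at 7 days and -3.57 to -1.89 at 30 days, and of 8 urothelial markers 4 rose, with mean levels of -2.52 to 2.39 and then 1.61 to 3.05. Their part in the result was not tested.

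Within the second scan day, 180 days was compared with 90 days. With ADSCs 0 of 45 members passed, beside 4.14% of probes, with a median of 0.43. In unseeded BAM 3 fell, beside 4.17% of probes, with a median of -0.40. They were Bub1 by 1.05 (SE 0.273, adjusted p 0.00255), Aurka by 0.63 (SE 0.181, adjusted p 0.00739) and Bub1b, the checkpoint protein BubR1, at least 1.98-fold (adjusted p 0.00429). The count was 1 without replicate 8 of unseeded BAM at 90 days or replicates 1 or 5 at 180 days, 5 without replicate 1 at 90 days, and 0 with another background correction. Mki67 was at -1.73 ± 0.960 with ADSCs and -2.08 ± 0.288 without, beside -2.12 ± 0.559 and -1.80 ± 0.849 before, and Rrm2 had a median of -1.36 with ADSCs, over a range of -3.70 to 1.80, and of -1.41 without, over a range of -2.47 to -0.91. No difference between grafts at 90 or 180 days, or between these days, passed the test for either gene.

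The question of the study was whether seeding with ADSCs changes the reconstructed wall. At 7 days 0 of 45 members passed the test between the grafts, beside 7.73% of probes. However, 43 of 45 were below 0 in the seeded bladders, with a median of -0.45 beside -0.16 over all probes. Unseeded replicate 2 was the highest of its group in 43 of 45 members, and without it the difference of the member means was -0.27. The member closest to a call was E2f1 at -0.45 (adjusted p 0.00121), under the fold required, and Mcm4 was at -0.43 (adjusted p 0.0272). Among the genes outside the list, Cdkn1a was lower by 0.80 on the log2 scale in seeded bladders (SE 0.133, adjusted p 1.04e-05), and so were Ccnf, cyclin F, at -1.04 and Tacc3, a spindle protein, at -0.69. Of 8 urothelial markers 6 were higher in seeded bladders at this day, with a median of 1.93 and mean levels of 1.08 to 2.98 against -2.52 to 2.39. Of 7 neutrophil markers 2 were lower. Their part in the differences was not tested.

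At 30 days 0 of 45 members passed, beside 1.67% of probes, with a median of 0.15 beside 0.11. E2f1 was the only member of 45 whose arrays did not overlap in either direction. Of named genes 1.08% were lower with ADSCs without overlap and 1.23% were higher, so 1 of 45 is near the share over all named genes. The lowest and highest levels of E2f1 were -1.41 and -1.11 with ADSCs and -0.96 and -0.59 without. Its difference of -0.46 (SE 0.105, adjusted p 0.00354) was under the fold required. Its second, dimmer probe gave -0.12 (adjusted p 0.832) at this day, and -1.24 (adjusted p 0.00181) at 90 days, where the brighter one gave -0.09. Tk1 was at 0.56 (adjusted p 0.162) and did not pass.

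At 90 days 5 of 45 members were lower with ADSCs and 0 were higher, beside 8.6% of probes lower and 3.88% higher. The median was -0.48 beside -0.27 over all probes, and 37 of 45 were below 0. Bub1b had lowest, median and highest levels of -6.46, -6.11 and -5.42 with ADSCs and of -5.39, -4.66 and -0.78 without. It was well above background on 0 seeded and 4 unseeded arrays, and it was at least 3.20-fold lower with ADSCs (adjusted p 0.000175). The groups did not overlap in Bub1b, 1 of 2 such members of 45, both lower with ADSCs. Of named genes 1.21% did not overlap in this direction and 1.37% in the other. Tpx2, which starts microtubule growth in the spindle, was at least 2.78-fold lower (adjusted p 0.005) and was well above background on 2 unseeded arrays. Aurkb, the kinase of the passenger complex, was at least 2.38-fold lower (adjusted p 0.00675) and was well above background on 1. These 3 bounds hold for the main processing only, and the unseeded means behind them include the high replicate 8 described below. Over the alternatives the log2 differences were as small as -0.35 for Bub1b, -0.36 for Tpx2 and -0.34 for Aurkb. Ccne2 (adjusted p 0.00535) and Kif11 (adjusted p 0.00482) were not well above background on any array of either graft, so no fold is given, and both lost their direction with another background correction. The highest unseeded level in all 5 genes was that of replicate 8, and Aurkb was at -0.65 there and at -5.80 to -4.46 on the others. On that array 35.54% of spots were well above background, the lowest share of any array, and so were 13 of 45 members. It was the highest of its group in 17 of 45 members, beside 37.5% of named genes, so its high levels were not particular to the members. The count of 5 was 1 without this bladder, and also 1 without seeded replicate 8, 2 without seeded replicate 7 and 3 without seeded replicate 1, 2 or 6. It was 0 with another background correction, with dim probes left out or with only the arrays of the day in the fit, and 1 after quantile normalization. The unseeded arrays of 90 days had a background of 321 to 366 and the seeded ones 99 to 120, which cannot be told apart from the graft. A second, dimmer Foxm1 probe was called lower at -1.41 (adjusted p 0.00585), where the brighter one gave 0.39. Quantile normalization, which sets the median over all probes near 0, gave member medians of -0.37, 0.00, -0.06 and 0.30 at 7, 30, 90 and 180 days.

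Other members did not pass at 90 days. Mki67 differed by -0.31 (adjusted p 0.374), and the levels of the grafts overlapped. Cdca8 was at -0.92 (adjusted p 0.0142), Cdkn3 at -0.75 (adjusted p 0.013) and Ect2 at -1.16 (adjusted p 0.0405). Outside the list, Tacc3 was lower by 0.81 on the log2 scale in seeded bladders (SE 0.158, adjusted p 5.96e-05) and was well above background on all 16 arrays, Rbl1 was lower at least 2.08-fold and Trip13 at least 2.38-fold, and Mad2l1, a checkpoint protein, was higher by 0.73. Of 8 smooth muscle and 8 fibroblast markers 3 each were higher with ADSCs, at mean levels of 3.53 to 4.39 against 2.63 to 4.32 and of 2.36 to 2.81 against 1.96 to 2.62, and their part was not tested.

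At 180 days 0 of 45 members passed, beside 2.44% of probes, although 41 of 45 were above 0, with a median of 0.39 beside 0.06. The group medians of the member mean were -3.39 with ADSCs and -3.38 without. Seeded replicates 5 and 6 had member means of -1.61 and -2.30. Without seeded replicate 5 the difference of the grafts in the member mean was 0.17. Ndc80 was at 1.05 (SE 0.308, adjusted p 0.0271) and Cdc20 at 0.43 (adjusted p 0.105). No marker of the 10 cell type lists passed either, but all 8 T cell, 8 macrophage, 8 endothelial and 5 B and plasma cell markers were above 0, with medians of 0.44, 0.24, 0.43 and 1.13. The mean levels with and without ADSCs were -4.03 to -2.16 and -4.09 to -3.39 for T cells, -0.04 to 1.53 and -0.33 to 1.27 for macrophages, -0.37 to 0.37 and -0.66 to -0.22 for endothelium and -4.36 to -1.86 and -4.52 to -3.45 for B and plasma cells. Group means were also higher with ADSCs for adipocyte (-0.5 against -1.28), skeletal muscle (-2.01 against -2.3) and neutrophil markers (-3.78 against -3.92). They were lower for urothelial (3.27 against 3.71), smooth muscle (3.73 against 3.89) and fibroblast markers (2.56 against 2.59). Their part was not tested. Cdkn1a was higher by 0.66 with ADSCs at this day, and Ccnf by 1.12. The count of members was 1 without seeded replicate 8 or unseeded replicate 3. A difference that missed the threshold was not thereby shown to be 0. The 95% intervals of the graft differences were 0.42 to 2.00 wide, and their lowest bounds were -1.75, -1.08, -2.58 and -0.68 and their highest 0.75, 1.63, 1.24 and 2.03 from the earliest day to the last.

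**Figure D4:**
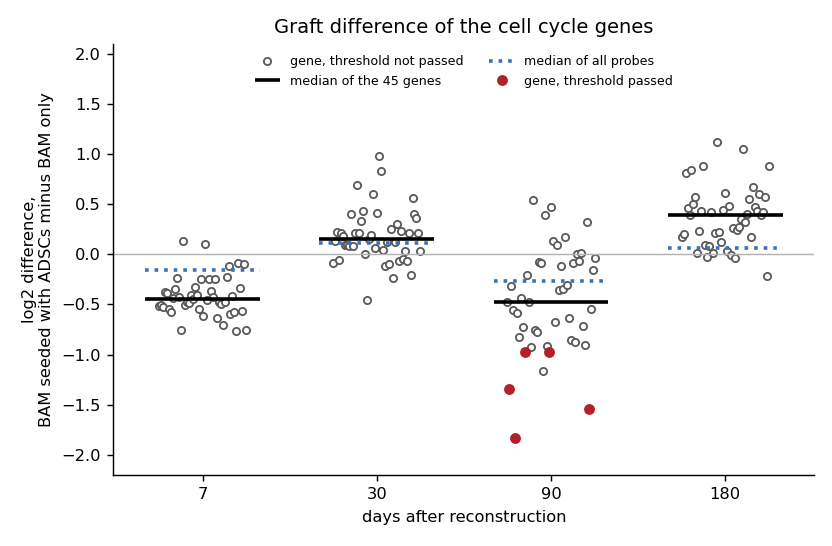
Log2 difference of BAM seeded with ADSCs minus unseeded BAM for each of the 45 members at 7, 30, 90 and 180 days, with the median of the members and of all probes, and red points where the threshold was passed. The members' medians are -0.45, 0.15, -0.48 and 0.39, and the 5 red points are at 90 days.

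The change of the graft difference from one day to the next was tested as a contrast of contrasts. From 7 to 30 days 0 members passed. From 30 to 90 days 3 were lower, beside 6.67% of probes, Bub1b by -2.04 (SE 0.536, adjusted p 0.00463), Cdca8 by -1.61 (SE 0.417, adjusted p 0.00398) and Ccne2 by -1.37 (SE 0.382, adjusted p 0.00739). Its count was 5 without seeded replicate 4 of 30 days or unseeded replicate 2 of 90 days. From 90 to 180 days 4 were higher, beside 5.95% of probes, Ect2 by 2.29 (SE 0.641, adjusted p 0.00713), Bub1b by 2.22 (SE 0.536, adjusted p 0.00158), Ndc80 by 1.70 (SE 0.435, adjusted p 0.00302) and Kif11 by 1.42 (SE 0.380, adjusted p 0.00471). Its count was 2 without seeded replicate 5 or unseeded replicate 1 of 180 days. All rest on dim signals at 90 days, and both counts were 0 with another background correction and after quantile normalization. The 2 contrasts share the arrays of 90 days.

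Single bladders of a group stood apart in most members at once. Unseeded replicate 2 at 7 days had the highest level of its group in 43 of 45 members, beside 15.4% of named genes, and its member mean of -0.20 was followed by -1.13. Its Mki67 level was 2.05, its Cdk1 level 2.68 and its Plk1 level 2.17. The smooth muscle marker mean was 3.07 on this array and 0.35 to 2.78 on the others of its group. The B and plasma cell mean was -4.74 against -3.10 to -0.28. T cell, adipocyte, endothelial, fibroblast and macrophage means were also the lowest of the group, at -2.18, -1.97, -0.39, 3.15 and 1.76. The lowest of the others were -1.88, -1.81, -0.09, 3.31 and 1.80. Seeded replicate 5 at 180 days was highest in 38 of 45 members, beside 17.1% of named genes. Its smooth muscle markers were at 2.79 against 3.24 to 4.49 and its neutrophil markers at -2.88 against -4.70 to -3.37. Its fibroblast markers were also the lowest, at 2.28 against 2.43 to 2.83. Seeded replicate 7 at 30 days was highest in 37 of 45, beside 8.63%. Its smooth muscle markers were at 1.90 against 2.37 to 2.93 and its neutrophil markers at -1.27 against -3.64 to -1.69. Its skeletal muscle markers were also the lowest, at -3.79 against -3.36 to -1.50. In the last 2 bladders, but not in the first, the members were high where the smooth muscle markers were at the lower end of their group. Seeded replicate 6 at 7 days was the lowest of its group in 40 of 45 members, beside 8.34% of named genes. Its adipocyte markers were at -0.07 against -1.95 to -0.82 and its urothelial markers at 2.98 against 1.08 to 2.69. Its macrophage markers were at 2.27 against 1.54 to 2.25. The part of all these markers in the member levels was not tested.

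**Figure D5:**
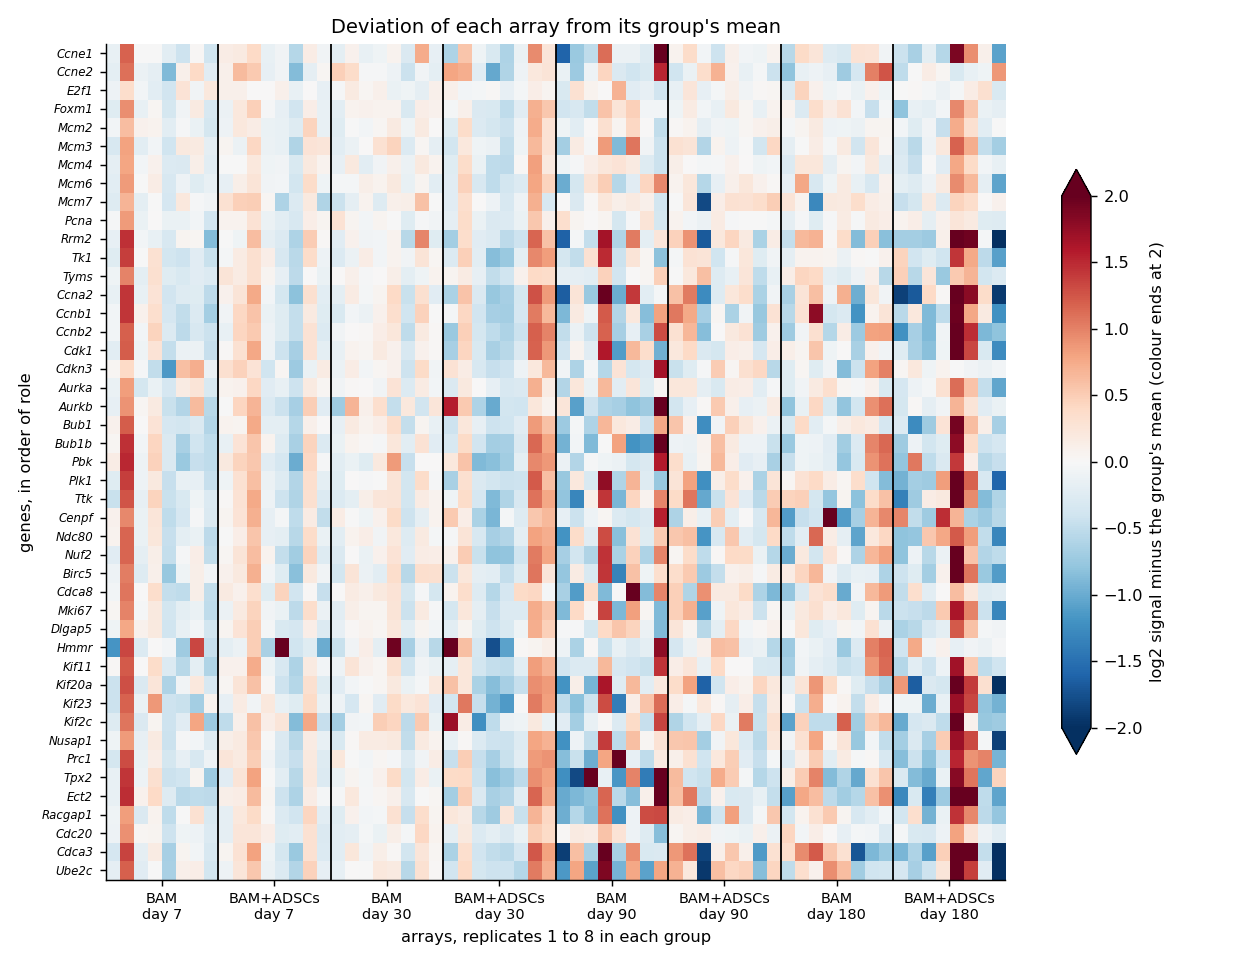
Level of each member on each of the 64 arrays minus the mean of its group (log2, colour scale ending at 2 in each direction), with genes in rows by role and arrays in columns by group. Most of a column is shifted together in unseeded replicate 2 at 7 days and seeded replicate 5 at 180 days, where 43 and 38 of 45 members were the highest of their group.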

How the data were processed

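RNA of the reconstructed bladder wall was measured on 64 Agilent rat arrays labelled with Cy3 alone, with 8 arrays in each of the 8 groups, and graft, day and replicate number were taken from the labels. Each array was of a separate bladder. The authors deposited the scanner output of Agilent Feature Extraction 12.0.1.1, whose processed signal is a linear intensity after background correction within each array. A table of the same intensity deposited by the authors equalled the scanner values in 61 of 64 columns, of which 1 (unseeded BAM at 180 days, replicate 1) lacked 26650 spots, and was used as an alternative only. Signals were taken to log2, the 75th percentile of the gene spots of the array was subtracted, outlier spots were dropped and the remaining spots were averaged per probe. Probes were named through RefSeq accessions without version (18758 of 22372 matched, GRCr8, names and promoters only). A gene with several probes, as 12 members had, was given by its brightest probe over all arrays. A probe was well above background where at least 0.5 of its spots were. A fold against a group with no such array was bounded by taking, on each of its arrays, the higher of the lowest signal well above background and the signal of the probe itself. Such a bound holds for the main processing and was not computed for the alternatives.

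The 8 groups were fitted together with limma 3.58.1 in R 4.3.3, with 13 contrasts, and p-values were adjusted over 30367 probes. A call needed an adjusted p below 0.01 and a fold over 1.5. Figures were drawn with matplotlib 3.10.9. The script was tested on simulated data with 200 of 30367 probes changed. Of changes of 1 log2 unit 52% were called and of changes of 2 units 83%, with 3 false calls. Smaller changes were not simulated. The members, gene lists and markers were chosen with earlier results of these data known. The text names 12 set members at all groups (Top2a not on the array), each called member between grafts, the 4 largest falls and rises between days, and the member with the smallest p of each role. Further genes were added from the same tables to fill the roles, after their values were seen. The alternatives included normexp (offset 50) as background correction, quantile normalization, a percentile over detected probes, all probes of a gene averaged, dim probes left out, outlier spots kept, a looser threshold, a fit within the day, a 2-way analysis of variance, the deposited table, a replicate block and leaving out each array. The number of arrays and the background limit the precision.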

Additional observations from a re-analysis of the deposited data

Results flagged for a closer look

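Dixon's test was run on 96 sets of 8 values, each set being the member mean or 1 gene in 1 group of 8 arrays. It marked a single array far from the rest in 10 sets. Sets of 1 group share the same arrays, and the genes are part of the member mean, so the 96 sets are not independent. The chance rate of about 1 in 20 therefore cannot be set beside 10 of 96. Of the 10 marks, 8 were of 1 bladder, replicate 2 of unseeded BAM at 7 days. Its member mean of -0.20 was followed by -1.13, and its levels were 2.05 for Mki67, 2.68 for Cdk1, 2.17 for Plk1, 0.08 for Mcm2, 2.01 for Pcna, 0.56 for Ccne1 and -0.81 for Foxm1, each the highest of its group. In unseeded BAM at 90 days replicate 8 had an Aurkb level of -0.65, with the next at -4.46. On that array 35.54% of spots were well above background, and it was the highest of its group in 37.5% of named genes. In unseeded BAM at 30 days replicate 7 had a Ccne1 level of -0.30, with the next at -0.96.

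For 7 results the graft difference changed between days by the contrast of contrasts, 3 of 45 members lower from 30 to 90 days, beside 6.67% of probes, and 4 of 45 higher from 90 to 180 days, beside 5.95%, shares near those of all probes. Both counts were 0 with normexp and with quantile normalization. From 30 to 90 days it changed by -2.04 for Bub1b, -1.37 for Ccne2 and -1.61 for Cdca8. From 90 to 180 days it changed by 2.22 for Bub1b, 2.29 for Ect2, 1.42 for Kif11 and 1.70 for Ndc80. The 2 contrasts share the arrays of 90 days, on which each of these genes was well above background on at most 4 arrays of a group.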

How the results depend on the processing

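The counts of members that fell from 30 to 90 days stayed within 1.5 times of the main count under every alternative run (29 to 43 with ADSCs, 26 to 36 called without them). With normexp the member medians of this step were -0.91 and -0.75, and Ect2 with ADSCs ranged from -3.40 to -1.43 over the alternatives. The smaller counts did not. With normexp the count between grafts at 90 days was 0, that of unseeded BAM from 7 to 30 days 13 and from 90 to 180 days 0, and the counts of the changing graft difference were 0 for 30 to 90 and 0 for 90 to 180 days. With quantile normalization these 5 were 1, 1, 1, 0 and 0. With dim probes left out the count at 90 days was 0, that of unseeded BAM from 90 to 180 days 1 and that of the graft difference from 90 to 180 days 0. It was 0 at 90 days with only the arrays of that day, and 5 for the graft difference from 30 to 90 days with the mean of all probes. At an adjusted p below 0.05 without a fold the counts between grafts were 5, 2, 11 and 1 at 7, 30, 90 and 180 days, those with ADSCs 1 and 2 for 7 to 30 and 90 to 180 days, those without 11 and 9, and those of the graft difference 13 and 14 for 30 to 90 and 90 to 180 days. Ccne2 at 90 days turned to 0.06 with normexp and 0.13 with quantile normalization, Kif11 to 0.06 with normexp, Hmmr in unseeded BAM to -0.15 and the graft difference of Ccne2 from 30 to 90 days to 0.14 with quantile normalization. The cause was not tested.

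Leaving out 1 array gave counts between grafts of 0 to 0 at 7 and 30 days, 1 to 7 at 90 days and 0 to 1 at 180 days. From 7 to 30 days it gave 0 to 0 with ADSCs and 1 to 5 without, from 30 to 90 days 37 to 40 and 30 to 34, and from 90 to 180 days 0 to 0 and 1 to 5. For the graft difference it gave 0 to 0, 2 to 5 and 2 to 6. The difference of the member means was -0.49 to -0.27, 0.06 to 0.26, -0.55 to -0.35 and 0.17 to 0.49 at the 4 days. The replicate numbers did not pair the bladders (correlations of -0.28 to 0.33 between same-numbered arrays, 1 to 3 of 8 pairs over 0.1 at a day, and at most 3 of 8 arrays best with their own number). With a replicate block the count of unseeded BAM from 7 to 30 days was 2, and no other count moved by more than 1.5 times. Depth of signal limited late values, since 9 to 38 of 45 members were well above background there.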
